A study of Caenorhabditis elegans with 2 samples.

Results

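The peaks described here are the sites of CEH-36 signal inside introns of protein-coding genes, away from gene starts, small RNA genes and telomere-type repeats. They numbered 198 of the 1636 nuclear peaks (12.1%) in the authors' optimal list, which held 1662 entries. A peak was taken when its summit lay in the body of a protein-coding gene, in no exon of any annotated gene, and over 500 bp from the start of every protein-coding gene. Summits near small RNA genes were left out (within 500 bp for tRNA genes, 200 bp for snoRNA genes), as were those with TTAGGC, the unit of the worm telomere, at least 3 times on either strand in the 391 bp around the summit. These steps removed 33 and 269 intron summits, so the 198 peaks were fewer than the repeat-bearing ones in the same kind of place. The rule used positions and sequence repeats, and the authors' threshold on the list, but no signal value beyond that threshold. The other 3 classes under the same leave-outs were 264 gene start peaks, 216 distal intergenic peaks and 120 exon peaks.

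Chromatin immunoprecipitation and sequencing (ChIP-seq) was done on whole early embryos of Caenorhabditis elegans strain OP620, genotype unc-119(tm4063) III; wgIs620. The strain stably carries a ceh-36 transgene whose product has GFP and FLAG at its C-terminus, so the embryos hold this copy beside the gene's own. Embryos of both sexes were pooled and taken 2 hours after bleaching, the chromatin was sonicated, and the precipitation was with an antibody to GFP, while the antibody field of the labels reads ceh-36. There were 2 biological replicates of this 1 group, with no second genotype, stage or treatment. All cell types of the embryo were in the chromatin, so a peak does not show in which cells CEH-36 was bound. Read counts are not in the peak lists and the depth behind each value is unknown.

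CEH-36 is an Otx-type homeodomain protein that helps to set the identity of the AWC and ASE sensory neurons of the worm. Homeodomains of this class carry a lysine in the recognition helix and bind DNA with the core TAATCC, written GGATTA on the other strand. Introns of worm genes are spliced out of the transcript, but they can also hold enhancers that act on the host gene or on a neighbour, and first introns are a common place for them.

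The sequences of the strongest intron peaks with TAATCC are given first, since most results below turn on that core. They were read from the WBcel235 (ce11) RefSeq genome, are written 5′ to 3′ in lower case, and have each TAATCC that reads on the printed strand in capitals. The 3 strongest whose sequence could be shown are given as 201 bp centred on the summit, on the plus strand. The K04B12.2 window is chrII:14437209-14437409, in intron 1 of 3 of a gene on the minus strand. The tsen-54 window is chrIV:1949970-1950170, in intron 4 of 7, and consists of a short unit repeated in tandem. The egl-27 window is chrII:6844826-6845026, in intron 10 of 12.
K04B12.2: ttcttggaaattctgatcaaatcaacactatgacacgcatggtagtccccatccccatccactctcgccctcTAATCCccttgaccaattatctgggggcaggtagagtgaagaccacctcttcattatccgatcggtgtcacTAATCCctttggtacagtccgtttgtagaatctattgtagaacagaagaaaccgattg
tsen-54: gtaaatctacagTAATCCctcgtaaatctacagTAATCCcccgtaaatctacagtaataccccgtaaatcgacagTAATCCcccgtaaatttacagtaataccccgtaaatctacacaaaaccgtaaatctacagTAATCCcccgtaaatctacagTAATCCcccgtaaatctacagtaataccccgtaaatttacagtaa
egl-27: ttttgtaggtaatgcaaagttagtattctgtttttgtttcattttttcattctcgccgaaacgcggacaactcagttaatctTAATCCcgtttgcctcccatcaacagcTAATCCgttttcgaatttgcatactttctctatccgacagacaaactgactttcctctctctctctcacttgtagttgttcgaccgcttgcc
In K04B12.2 the base after both cores was C and the cores lay on opposite sides of the summit, and in egl-27 the 2 cores also stood on 1 strand.

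For the next 5 peaks with a core, 46 bp around the core nearest the summit show its neighbouring bases, on the strand that reads TAATCC. A further set in developmental genes, from ceh-36 on, was chosen after their values were seen. The igcm-3 window is chrX:2704912-2704957 on the plus strand, and the cyp-37A1 window is chrII:14015480-14015525 on the minus strand. The plr-1 window is chrIII:11460001-11460046 on the minus strand, and the hpo-36 window is chrV:3731337-3731382 on the minus strand. The Y111B2A.12 window is chrIII:12616106-12616151 on the plus strand. The ceh-36 window is chrX:14185742-14185787 and the nob-1 window chrIII:12082192-12082237, both on the plus strand. The vab-3 window is chrX:10508214-10508259, the cdh-4 window chrIII:4524273-4524318 and the vab-1 window chrII:4585522-4585567, all on the minus strand.
igcm-3: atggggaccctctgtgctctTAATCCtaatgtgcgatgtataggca
cyp-37A1: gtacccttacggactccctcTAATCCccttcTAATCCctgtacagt
plr-1: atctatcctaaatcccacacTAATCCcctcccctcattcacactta
hpo-36: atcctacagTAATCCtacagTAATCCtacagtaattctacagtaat
Y111B2A.12: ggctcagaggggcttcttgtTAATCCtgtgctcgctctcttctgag
ceh-36: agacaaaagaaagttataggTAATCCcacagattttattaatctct
nob-1: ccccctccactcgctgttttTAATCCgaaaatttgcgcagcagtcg
vab-3: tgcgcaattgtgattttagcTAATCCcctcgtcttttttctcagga
cdh-4: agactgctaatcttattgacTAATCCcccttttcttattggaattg
vab-1: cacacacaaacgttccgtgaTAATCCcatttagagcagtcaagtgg
The base after the core was C in 6 of these 10 windows for the core nearest the summit. Among the first 5 these were only cyp-37A1 and plr-1, and the others were ceh-36, vab-3, cdh-4 and vab-1, chosen after their values were seen. The cyp-37A1 window held a second core 11 bp further along the same strand. The hpo-36 window repeats a unit with the core, as the tsen-54 window does.

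Most of the intron peaks were weak members of the authors' list. Signal, a value per peak from the authors' peak caller on the pooled replicates, had a median of 102.97 (quartiles 94.5 and 127) and extremes of 87.3 and 359. The median was 113 in gene start peaks, 102 in distal intergenic peaks and 101.5 in exon peaks. The intron summits left out for small RNA genes or telomere units had medians of 172 and 151.1. The smallest signal in the whole list was 87.2, so many of the intron peaks lay close to the authors' threshold. The weakest member had 87.3 and the strongest intron entry that missed the list had 87.02. Of the entries of the pooled list that met the rule on position, 198 of 7653 (2.59%) were in the optimal list, while over all nuclear entries the share was 5.46%. The 7406 pooled intron entries that met the rule and overlapped no optimal peak serve below as the background and had a median signal of 35.7. At the edge of the position rule, the member nearest a gene start lay 508 bp away, in C10G11.6 (signal 88.2), and the farthest intron summit left out for a gene start lay 477 bp away, in C05A9.2 (116.5). Telomere units were present once at 24 members and 2 times at 4, while 2 intron peaks with exactly 3 units were left out.

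**Figure D1:**
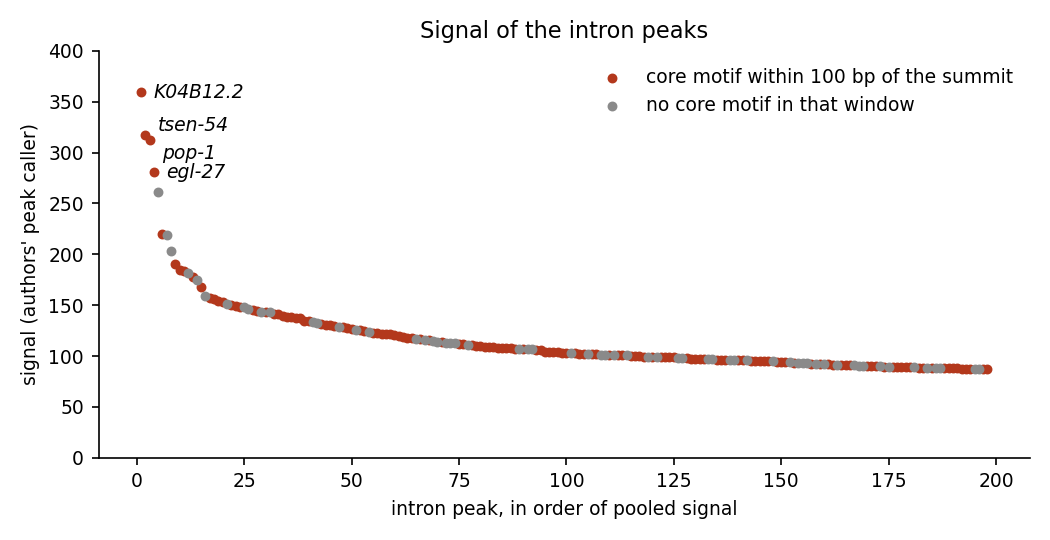
Signal of each of the 198 intron peaks (y axis, value of the authors' peak caller on the pooled replicates) in descending order (x axis), coloured by whether the core motif lies within 100 bp of the summit. A few peaks stand above 200 and the rest run down slowly to 87.3, with peaks of both kinds along the whole order.

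The strongest intron peak lay in K04B12.2, with a pooled signal of 359. Its nearest entry had a signal of 175 in replicate 1 and 183 in replicate 2, and a second peak in intron 2 of the same gene had a pooled signal of 156. In tsen-54, which encodes a subunit of the tRNA splicing endonuclease, the peak had 317 in the pooled list, 143 in replicate 1 and 176 in replicate 2. In pop-1, the TCF/LEF factor at the end of the Wnt pathway, the peak in intron 1 of 3 had 312 in the pooled list, 132 in replicate 1 and 178 in replicate 2. In egl-27, which encodes an MTA-type chromatin protein, the peak had 281 in the pooled list, 117 in replicate 1 and 174 in replicate 2. These 4 peaks were among the highest of the intron class in both replicates, and each held at least 2 TAATCC cores within 100 bp.

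The next peaks down the order were in M01F1.8 (261), igcm-3 (220), F09A5.3 (219) and scc-2 (203), and of these only igcm-3, an immunoglobulin-type cell adhesion molecule, had TAATCC. The scc-2 gene encodes the loader of cohesin. Peaks in cyp-37A1, a cytochrome P450 gene, in plr-1, a membrane ubiquitin ligase that limits Wnt receptors, and in hpo-36 had signals of 190, 185 and 184. Those in uba-5, the activating enzyme of the UFM1 pathway, and in srt-52, a serpentine receptor gene, had 181 and 175 and no TAATCC. The remaining 7 of the 20 strongest were in Y111B2A.12 (177), R04A9.3 (167.5), mdt-26 (159), a Mediator subunit gene without TAATCC at its peak, tra-1 (157), the GLI-type regulator of sex determination, K04B12.2 for the second time (156), F07C6.4 (154) and rfip-1 (154), a gene for a Rab11-binding protein. In all, 14 of the 20 strongest had the core.

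The TAATCC core was present within 100 bp of the summit in 137 of the 198 intron peaks (69.2%; exact 95% interval 62.3 to 75.5). The share over all nuclear optimal peaks was 41.9%. In windows of the same width 500 bp to the left of the same summits, 12 held the core (6.06%). Peaks with the core at the summit and none in the flank numbered 127, and the reverse was seen in 2, giving a ratio of 63.5 (95% interval 17.2 to 530; two-sided exact sign test, adjusted p = 1.972e-34 over 8 motifs). The core was thus far more frequent at the summits than in these flanks, which were set by distance alone and can reach beyond the intron. A difference is said to pass a test where its adjusted p is below 0.05, and intervals and p-values here count peaks of 1 list, not separate cultures.

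The core was also more frequent in these peaks than in the background intron entries, where 1409 of 7406 (19.03%) held it (odds ratio 9.555, 95% interval 6.975 to 13.22; Fisher's exact test, two-sided, adjusted p = 2.157e-50 over 8 tests). A stronger background was the part of these entries among the 5000 strongest pooled entries, in any place, that overlapped no optimal peak. There the core was in 37.1%, and the odds ratio was lower, at 3.81 (2.73 to 5.36). Gene start peaks held it in 68 of 264 (25.8%), and the difference from the intron peaks passed the same exact test (odds ratio 6.443, 4.216 to 9.952; adjusted p = 3.628e-20). Distal intergenic peaks held it in 124 of 216 (57.4%), a much smaller difference (odds ratio 1.66, 1.09 to 2.55; Fisher's exact test, adjusted p = 0.0291). That last call ended with a gene start distance of 1000 bp, with windows of 50 bp and with the list of either replicate alone. In the part of the list above its median signal that odds ratio was 0.926 (0.341 to 2.48). Of the 120 exon peaks, 44 (36.7%) held the core, with no test.

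**Figure D2:**
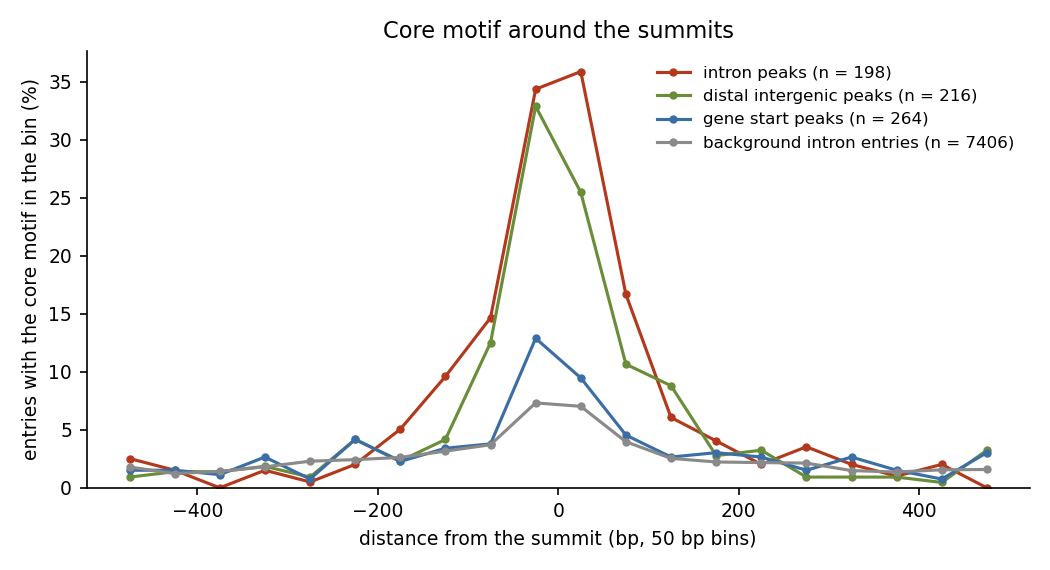
Share of entries with the core motif (y axis, percent) in 50 bp bins by distance from the summit (x axis, bp) in the 198 intron peaks, 216 distal intergenic peaks, 264 gene start peaks and 7406 background intron entries. The intron peaks reach 34.3% and 35.9% in the bins on each side of the summit, against 7.32% and 7.02% in the background, and all classes are low beyond 200 bp.

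Where the core was present, its midpoint lay a median of 18.5 bp from the summit (quartiles 8.5 and 39.5), and within 20 bp in 70 of the 137 peaks. Cores were found along the whole order of signal: in 72% of the 50 strongest members, 74% and 68% of the next 2 sets of 50, and 62.5% of the 48 weakest. The share was 35 of 54 (64.8%) in first introns and 101 of 141 (71.6%) in later introns. With exactly 1 core, 40 of 72 (55.6%) read on the strand of the host gene, and the test against an equal share was not passed (exact binomial test, two-sided, adjusted p = 0.468). Intron bases are called open to the rule here and below if they met its limits on gene bodies, exons, gene starts and small RNA genes. The leave-out for telomere units was not applied to these bases, so they include some that the full rule would exclude. Of all 10307 TAATCC sites in such bases, 216 (2.096%) lay within 100 bp of an intron peak summit, so nearly all lay outside these windows. Sites under other peaks of the list were not counted.

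The bases next to the core differed between the cores of peaks and the cores of introns at large, as a description with no test. The base after TAATCC was C at 44.5% of the 137 cores nearest the summits, against 16.4% of the 10307 intron cores, and A at 8.76% against 34.2%. The base before it was C at 30.7% against 17.4%, and G at 13.9% against 29.1%. The longer form CTAATCC was in 58 summit windows (29.3%) and 5 flank windows (2.53%), a ratio of 14.2 for peaks with it in 1 window only (exact sign test, adjusted p = 1.942e-12). CTAATCC contains the core, so this test cannot separate a preference for the C before it from the excess of the core itself. Among windows with the core, it was in 58 of 137 at the summits and 5 of 12 in the flanks. In a ranking of all 2080 hexamers by their excess at the summits over the flanks, GGATTA, the other strand of TAATCC, came first and AATCCC and AATCCT followed.

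Several cores often stood together. Of the 198 peaks, 61 held no core, 72 held 1, 51 held 2, 10 held 3, and 4 held more. At least 2 cores were present in 65 intron peaks (32.8%), against 238 background intron entries (3.21%), 59 distal intergenic peaks (27.3%) and 20 gene start peaks (7.58%). Of 88 neighbouring pairs of cores in the intron peaks, 35 (39.8%) were spaced by 25 bp or less from start to start, and 30 of those 35 had both cores on the same strand. In the background entries 80 of 283 pairs (28.3%) were that close. The same-strand share of these 80 is not given here, so the 30 of 35 has no background share beside it. Among the 80 were 10 same-strand pairs at 8 bp, 13 at 11 bp and 10 at 21 bp, with 1 pair on opposite strands at 11 bp. Over all distances, 56 of the 88 pairs in the intron peaks were on the same strand, against 198 of 283 in the background. The most frequent spacing in the peaks was 11 bp on the same strand, with 7 pairs, against 13 in the background. Of these 7 pairs, 4 were in the repeated unit at hpo-36, and cyp-37A1, dapk-1 and tir-1 had 1 each.

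Some of these arrays are repeats that the rule did not remove. The unit ACAGTAAT, searched on both strands, was present at least 2 times within 100 bp in 4 intron peaks (2.02%), against 45 background entries (0.608%). It was chosen after the data were seen and stands in the tsen-54 and hpo-36 windows above, so these shares are a description and cannot test for an excess. The 4 were tsen-54 with 8 copies and 5 cores, hpo-36 with 9 copies and 8 cores, T28D6.3 with 4 copies and 3 cores, and arrd-16 with 2 copies and 2 cores. No source used here says how reads in such units were placed, and its part in the signals of 317 and 184 in tsen-54 and hpo-36 was not tested. Without the 4 peaks the core was in 68.6% of the rest, and the ratio of summit to flank was 62. Soft-masked bases, in lower case in the RefSeq genome file, made up a median of 15.4% of the 201 bp windows at the intron peaks, 24.1% at gene start peaks, 14.7% at distal intergenic peaks and 33.1% at background intron entries.

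Of the other motifs searched, each on both strands within 100 bp, GAGAGA was in 25.8% of the summit windows and 10.6% of the flanks (ratio 2.58, 95% interval 1.49 to 4.64; exact sign test, adjusted p = 0.0009545). It was in 17.3% of all nuclear optimal peaks. The GATA-factor sequence TGATAA was less frequent at the summits, in 7.07% against 16.2% of the flanks (ratio 0.379, 0.171 to 0.782; exact sign test, adjusted p = 0.0129). With the flank taken to the right of the summit the ratios were 1.69 for GAGAGA and 0.5 for TGATAA and neither passed the test, nor did TGATAA with windows of 50 bp. For TAATTA (11.1% against 6.57%), CCGCCC (8.59% against 5.56%), TGACAG and CTTTGA the ratios were 1.69, 1.67, 0.786 and 0.905, with adjusted p-values of 0.281, 0.410, 0.789 and 0.875 in the exact sign test.

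The 61 intron peaks without TAATCC were not the weakest ones. Their median signal was 101.3, against 104.1 in the 137 peaks with the core, and 37 of 61 (60.7%) overlapped one of the strongest 1662 entries of both replicates, against 75 of 137 (54.7%). GAGAGA was in 24 of the 61 (39.3%) and in 27 of the 137 (19.7%), and it led the ranking of hexamers within the 61, a split looked at after the values were seen and given with no test. CCCCCC ranked 3 there, in 17 summit windows and 0 flank windows, and 6 over all members, in 40 and 4. The GC content of the 61 had a median of 46.8% against 43.3%, and their introns were longer, with a median of 3504 bp against 1729.5 bp. The strongest with GAGAGA was in intron 1 of F09A5.3, whose signal was 105.2 in replicate 1 and 120 in replicate 2. Its sequence is shown for chrX:13145105-13145185, plus strand, with GAGAGA in capitals.
F09A5.3: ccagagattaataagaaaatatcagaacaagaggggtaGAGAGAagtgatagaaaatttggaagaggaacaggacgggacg
The match stood in a stretch rich in A and G.

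First introns held more of the peaks than of the background. Of the members in an intron of a protein-coding transcript, all but 3 of the 198, 54 (27.7%) were in intron 1, against 1320 background entries (17.9%; odds ratio 1.76, 95% interval 1.25 to 2.44; Fisher's exact test, two-sided, adjusted p = 0.00241). First introns made up 18.2% of the intron bases open to the rule. Intron 2 held 38 members (19.5%), intron 3 held 16, intron 4 held 25, and intron 5 or a later one held 62 (31.8%, against 40.8% of background entries). Against the stronger background defined above the odds ratio was 1.39, and Fisher's exact test was not passed (adjusted p = 0.103). In the part of the list above its median signal the odds ratio was 0.943 (95% interval 0.403 to 1.97). The 3 members outside this count lay in cdc-25.2, with 2 of them, and in F53H2.3, in gene body outside any intron of a protein-coding transcript.

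**Figure D3:**
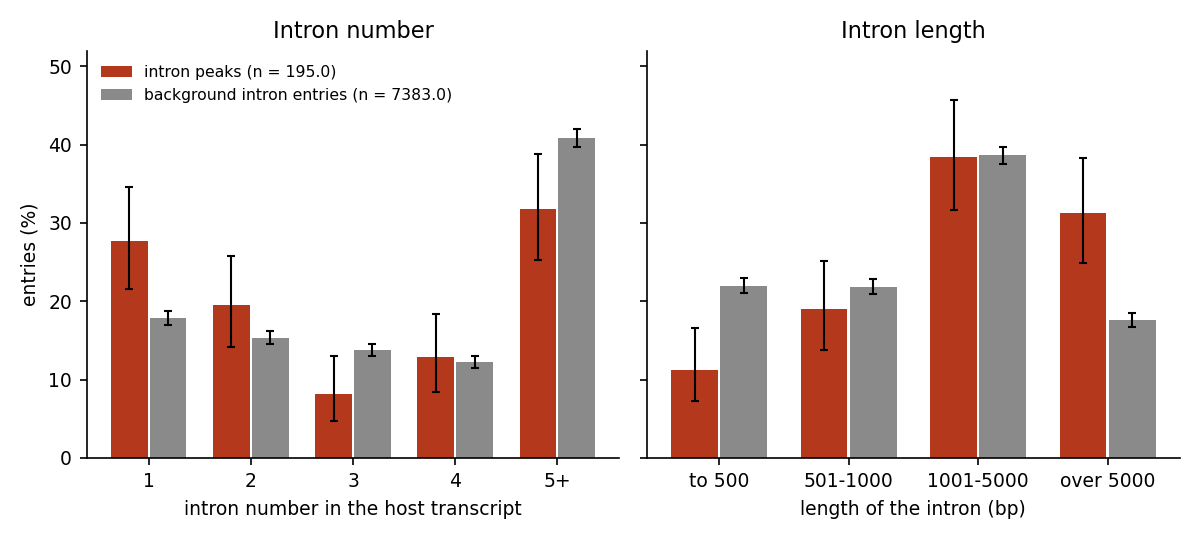
Share of entries (y axis, percent) by intron number in the host transcript and by intron length (x axes) for the intron peaks and the background intron entries, with exact 95% binomial intervals as bars. The intron peaks stand above the background in intron 1 (27.7% and 17.9%) and in introns over 5000 bp (31.3% and 17.6%).

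The introns that held peaks were long. Their length had a median of 2165 bp (quartiles 860.5 and 6353.5), against 1197 bp for the background entries, and ran from 41 bp in top-2 to 20089 bp in unc-7. Introns over 5000 bp held 61 of the peaks (31.3%) and 17.6% of the background, while introns of at most 500 bp held 22 (11.3%) and 21.96%. The summits lay a median of 436 bp from the nearer splice site and 3344 bp downstream of the host's start, against 3432.5 bp for the background. The farthest, in herc-1, was 40204 bp downstream. The nearest gene start was that of the host in 146 of 198 (73.7%), and 4 lay within 1000 bp of the start of another gene. Internal transcript starts gave no difference that passed the test: 25 of 198 (12.6%) lay within 500 bp of a protein-coding transcript start, against 11.5% of the background (odds ratio 1.12, 95% interval 0.697 to 1.71; Fisher's exact test, two-sided, adjusted p = 0.574).

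All 198 intron peaks had an entry in the list of each replicate, which the making of the optimal list from both replicates favours. One of the strongest 1662 entries of the replicate overlapped 153 of them in replicate 1, 152 in replicate 2 and 112 (56.6%) in both. The share in both was 62.1% for gene start peaks (odds ratio 0.794, 95% interval 0.536 to 1.18; Fisher's exact test, two-sided, adjusted p = 0.334) and 46.3% for distal intergenic peaks (odds ratio 1.51, 1.01 to 2.27; adjusted p = 0.0627), and neither difference passed the test. The summits of the nearest entries in the replicates were a median of 23 bp apart, against 78 bp for background entries found in both. The other classes of the optimal list were alike in this, with medians of 20 bp in gene start peaks, 28 bp in distal intergenic peaks and 23 bp in exon peaks. The rank correlation (Spearman) between replicate 1 and replicate 2 signals over the 198 peaks was 0.317, a description over peaks that share libraries and were chosen for high signal. Each replicate signal was that of the entry with the nearest summit, which was not always the strongest entry that overlapped the peak.

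**Figure D4:**
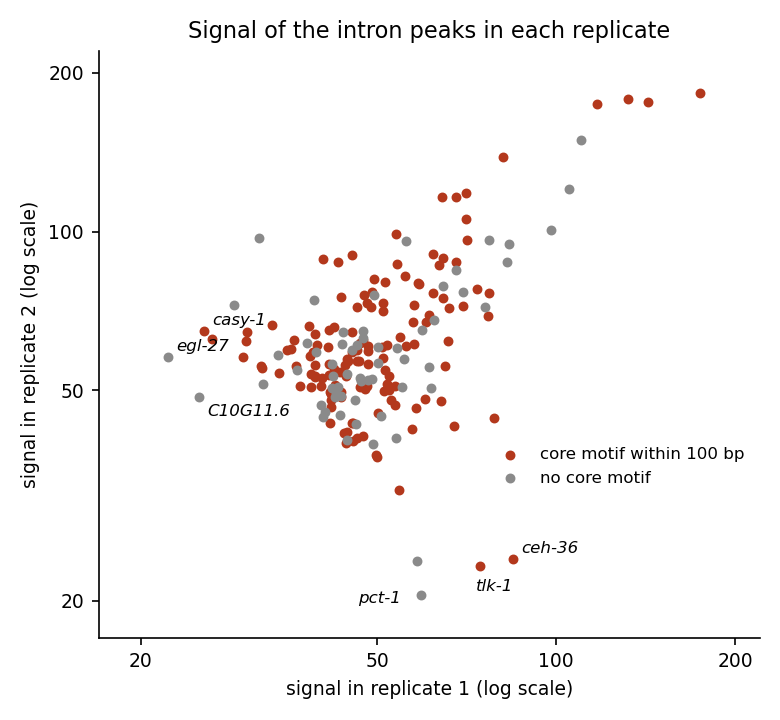
Signal of the nearest entry in replicate 1 (x axis) and replicate 2 (y axis), both on log scales, for the 198 intron peaks, coloured by the core motif, with the 6 peaks of largest rank difference named. The 4 strongest peaks lie above 110 in replicate 1 and above 170 in replicate 2, and pct-1, tlk-1 and ceh-36 lie below 25 in replicate 2. A strong entry of replicate 2 also overlapped the pct-1 and ceh-36 peaks.

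The 3 peaks of largest rank difference between replicates in each direction are given here. Others also differed widely, such as zfp-1, with 58.4 in replicate 1 and 23.8 in replicate 2. In casy-1, a calsyntenin gene, the nearest entry had a signal of 25.6 and rank 6757 in replicate 1, and 64.7 and rank 994 in replicate 2. One of the 3 egl-27 peaks had 22.3 in replicate 1 and 57.8 in replicate 2, and the C10G11.6 peak had 25.1 and 48.6. In the other direction, the tlk-1 peak had 74.6 in replicate 1 and 23.2 in replicate 2. The pct-1 peak had 59.2 and 20.5, and the peak in ceh-36 itself had 84.5 and 24.0. Those nearest entries can be side summits of a wider interval, since a strong entry of replicate 2 also overlapped the pct-1 and ceh-36 peaks. At the C10G11.6 peak a strong entry of replicate 1, and none of replicate 2, overlapped the interval, the reverse of the order of its nearest entries.

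The 198 peaks lay in 176 genes, 1.04% of the 16907 protein-coding genes with intron bases open to the rule. Of these hosts, 157 had 1 peak, 15 had 2 and 4 had 3, where 1 peak in the bodies of both T25B9.9 and inpp-1 is counted for each. Host genes had much open intron: its length summed over each gene had a median of 5558.5 bp, against 687 bp for all genes. The tenth of genes with the most open intron, 1690 genes with at least 4172 bp, held 51.6% of all open intron bases and 109 of the 176 hosts (61.9%). The 4 genes with 3 peaks were F09A5.3, egl-27, lsy-22 and vab-1. In lsy-22, known from the left-right asymmetry of the ASE neurons, all 3 peaks were in its first intron of 11392 bp, had signals of 146, 113 and 100.9, and none had TAATCC. In vab-1, the ephrin receptor, the signals were 131, 97.5 and 91.5, with a core in 2 of the 3. In egl-27 the other 2 peaks, with signals of 112.5 and 89.4, had no core, and in F09A5.3 the other 2 had 97.1 and 88.6, with a core in 1.

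The host lists below were chosen with earlier results of these data known, hold genes of known function, and are given by counts, with no test. Among axon guidance and cell adhesion genes 13 of 81 (16.05%) were hosts, with 17 peaks, 14 of them with TAATCC. Among Wnt and Notch pathway genes 6 of 45 (13.3%) were hosts, against 1.04% of all genes with open intron. The shares were 7 of 89 for other developmental transcription factors, 6 of 79 for signalling kinases and phosphatases, 6 of 98 for homeobox genes, 2 of 68 for chromatin regulators, 1 of 35 for bHLH factors, 2 of 73 for cytoskeleton and motor genes and 1 of 87 for ion channels and transporters. Per 100 kb of open intron there were 4.64 peaks in Wnt and Notch pathway genes, 3.22 in adhesion genes and 2.29 in homeobox genes, against 0.7004 in all genes. Ion channels and transporters, with a similar sum of open intron per gene (median 3729 bp, against 4148 bp in adhesion genes), had 0.180. Background entries also differed between lists, over a narrower range: 46.4 per 100 kb in Wnt and Notch genes, 48.4 in adhesion genes, 18.7 in ion channel genes and 26.2 in all genes.

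**Figure D5:**
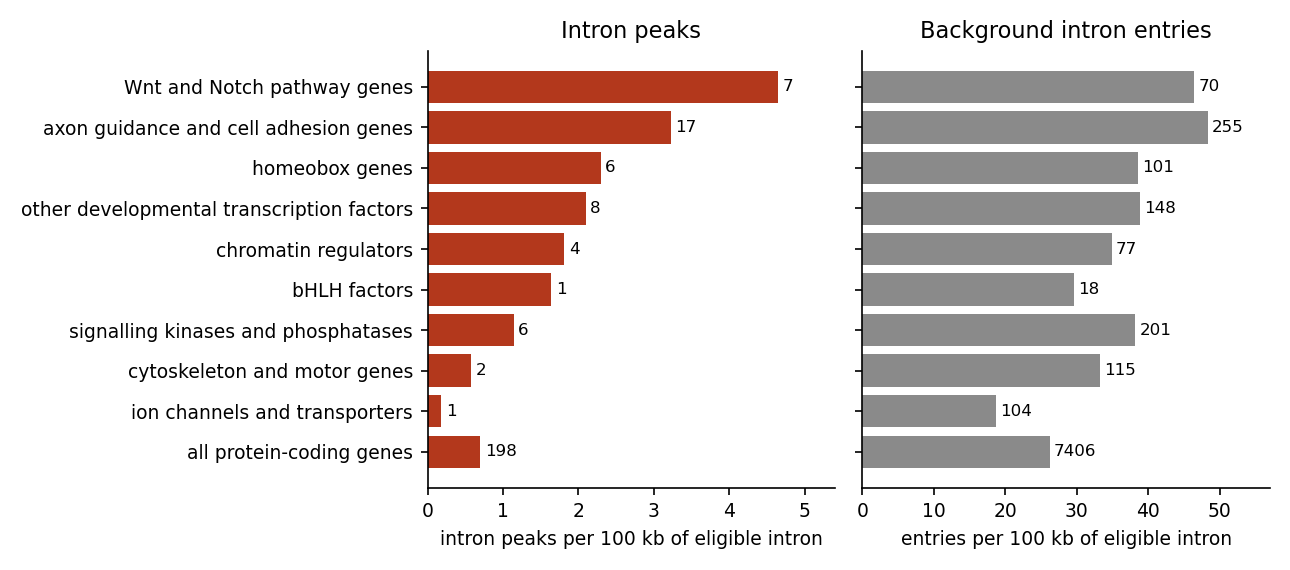
Number of intron peaks (left) and of background intron entries (right) per 100 kb of intron open to the rule (x axes), by list of host genes, with the count of peaks or entries beside each bar. Bases near telomere units were not taken out of the open intron. Wnt and Notch pathway genes (4.64) and adhesion genes (3.22) stand highest for the peaks, and the same lists are highest for the background entries (46.4 and 48.4).

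Among adhesion and guidance genes the strongest peaks were in igcm-3 (220), in ddr-2 (144 and 94.3), a discoidin domain receptor, and in the cadherin genes cdh-12 (141) and cdh-4 (141). The ephrin pathway was present with its receptor vab-1 and the ephrins vab-2 (97.0) and efn-4 (92.2), and hmr-1, the classical cadherin, had peaks of 110 and 96.5. In the Wnt and Notch list, pop-1 (312) stood far above the other hosts, which were the kinase lit-1 (101.3 and 93.96), the Notch receptor lin-12 (97.5), lag-1 (95.9), the DNA-binding factor of Notch signalling, the Mediator gene sop-3 (89.2) and the Frizzled receptor lin-17 (88.6). The lit-1 and lag-1 peaks had no TAATCC.

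Homeobox hosts were ttx-1 (143), the Otx-class gene of the AFD thermosensory neuron, zfh-2 (127), ceh-53 (114.8), ceh-36 (108.5), nob-1 (99.8), a posterior Hox gene, and vab-3, the worm Pax6 gene, whose peak was at the median signal of the members. All had the core except ttx-1 and ceh-53. The ceh-36 peak lay in intron 1 of its gene and its core is followed by C, and unc-119, also named in the strain's genotype, had a peak of 102.5 in its first intron with TAATCC. Transgene copies of these genes were not counted, and their part in the 2 signals was not tested. Without both peaks the core was in 68.9% of the rest and the first-intron odds ratio was 1.69. Other transcription factor hosts were tra-1 (157), the TEAD gene egl-44 (128 and 98.3), the zinc finger genes fozi-1 (105.5) and egl-46 (99.9), the forkhead gene fkh-7 (96.5), the nuclear receptor gene unc-55 (95.5) and lag-1 (95.9), the CSL factor of Notch signalling. The bHLH host was the E protein gene hlh-2 (88.1).

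In the remaining lists the hosts were the kinase genes unc-51 (150.5), par-1 (115.3), tlk-1 (103.8) and abl-1 (93.3), with 2 more, and the SWI/SNF gene let-526 (117) beside egl-27. The neuronal genes unc-33 (111) and unc-7 (90.2), for a CRMP protein and an innexin, and the spectraplakin gene vab-10 (108) completed them. The kinases daf-2 (91.9), the insulin receptor, and kin-1 (89.2) were the 2 others. Altogether 43 of the 176 hosts were in a list, so most hosts of intron peaks were in none.

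The intron peaks lay on all 6 nuclear chromosomes. Per Mb of open intron there were 9.82 on chromosome II, 8.46 on III, 7.79 on I, 7.11 on X, 5.16 on IV and 4.25 on V, against 7.004 overall. Annotation of noncoding genes changes the number of peaks: 21 further summits lay in introns of protein-coding genes but within exons of noncoding genes, and counting only exons of protein-coding genes would give 219. Their signals ran from 88.7 to 594, the highest at a pseudogene within unc-104 and at the RNase P RNA gene rpr-1 (369). TAATCC was in 4 of the 21 (19.05%), against 69.2% of the 198.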

How the data were processed

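The files used were peak lists on ce11: 1 list per replicate with 30000 entries each, 1 on the pooled replicates, and the optimal list, which the authors derived from the replicate and pooled lists with the irreproducible discovery rate procedure, per the file descriptions deposited with them. A control alignment also went into the lists, per the same descriptions. No aligner or peak caller is given in the sources used here. The signal value of each entry and its −log10 q-value are as the authors' peak caller deposited them. Signal values of different lists were not tested against each other, and replicate signals are set side by side as a description. The test of presence among the strongest entries of both replicates used overlap and rank only. Depth is unknown, so no interval covers it.

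Summits were placed on the Ensembl release 115 annotation and the RefSeq sequence of WBcel235, whose chromosome lengths fit the lists. Intron number was counted from the 5′ end in the longest protein-coding transcript with the summit in an intron. Background entries were pooled entries that overlapped no optimal peak by 1 bp and met the same rule. Peak shares were compared with Fisher's exact test, and summits with flanks by exact sign tests, each adjusted by Benjamini-Hochberg over 8 values at a threshold of 0.05. Intervals of shares are Clopper-Pearson. Placement and motif search were tested on simulated data. Python 3.11.15, numpy 2.4.6, scipy 1.17.1 and pandas 2.3.3 were used.

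The peaks and host lists were chosen with earlier results of these data known. Named genes are the hosts of the 20 strongest peaks, hosts with 3 or more, the up to 4 strongest hosts of each of 9 lists, and the 3 peaks of largest rank difference between replicates in each direction; others were named after their values were seen. The lists on ce10 were not used here.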

Additional observations from a re-analysis of the deposited data

How the results depend on the processing

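The numbers of peaks and hosts, the tests and the motif ratios were recomputed under other settings, 171 values in all, of which 150 were kept. Tests and ratios were kept if they stayed on the same side of 1 and of the threshold. Counts of peaks, hosts and motifs were kept if they stayed within a factor of 1.5. Taking 1 entry per distinct interval could not change the peaks, as all 198 intervals were distinct. The core ratio of summit to flank, the core against background entries and the core against gene start peaks were kept under every alternative tried, with ranges of 18.1 to 134, 3.81 to 11.59 and 4.40 to 12.8. In 1 setting no peak had the core in the flank only, and the lower 95% limit of that ratio was 8.46. In the part of the optimal list above its median signal there were 52 intron peaks in 50 hosts, and intervals were wide. The odds ratio was 0.926 (95% interval 0.341 to 2.48) for the core against distal intergenic peaks and 0.943 (0.403 to 1.97) for the first intron. Core strand gave 0.8 (0.274 to 2.25). Presence among the strongest of both replicates against distal intergenic peaks gave 0.383 (0.00707 to 4.98). There the shares were 94.2% of intron peaks and 97.7% of distal intergenic peaks, which left little room for a difference. For the core against distal intergenic peaks, the call was lost with a gene start distance of 1000 bp (1.40), with 50 bp windows (1.38) and with either replicate alone (1.497 to 1.508), that is, with the 1662 strongest entries of that replicate's list in place of the optimal list. For the first intron it was lost against the stronger background (1.39). That was the intron entries among the 5000 strongest pooled entries, in any place, that overlapped no optimal peak. The odds ratio for internal transcript starts was 0.884 with a gene start distance of 250 bp, 0.853 against the stronger background and 0.795 within 1000 bp, never past the threshold. Core strand gave 0.951 to 1.22 with 1 replicate left out. With the flank to the right, 1 of the 7 other motifs passed instead of 3, namely CTAATCC, which contains the core. TGACAG stood at 1.5 there, while CTTTGA stood at 1.04 with 150 bp windows. The causes were not tested. Keeping the strongest peak of each host, leaving out ceh-36 and unc-119, and leaving out repeated units of ACAGTAAT were chosen after seeing the data and changed no call. No paired analysis was possible because both replicates are of 1 group. Unknown depth limits what the absence of a peak shows.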
